A study of Homo sapiens with 12 samples.

Results

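The genes described here are 43 human genes for ribosome biogenesis and the nucleolus, taken by symbol from a named list as 1 row of the count table per symbol, the row with the highest summed count. The table holds 23500 entries, of which 17162 were tested, and all 43 genes passed the filter of a summed count of at least 10. RNA was sequenced from HEK293T cells, a human embryonic kidney line that carries the SV40 large T antigen, and from R1, a methionine-independent clone of HEK293T. Both lines were grown for 12 h either with methionine (+Met) or with homocysteine, its metabolic precursor, in place of methionine (−Met+Hcy). The 4 groups were HEK293T +Met, HEK293T −Met+Hcy, R1 +Met and R1 −Met+Hcy, with 3 libraries each. R1 is a single clone, so what separates it from HEK293T cannot be told apart from what is particular to that clone. The labels name R1 in the titles of its libraries and HEK293T as their cell line. Nothing in the labels says that the libraries of a group came from separate cultures, so p-values measure the spread between these libraries, which may be technical.

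Ribosomes are built in the nucleolus. RNA polymerase I transcribes the long precursor of ribosomal RNA there, small nucleolar ribonucleoproteins (snoRNPs) direct its methylation and pseudouridylation, and assembly factors fold and cut it while ribosomal proteins join the small and the large subunit. S-adenosylmethionine, which cells make from methionine, is the methyl donor for fibrillarin (FBL) and NOP2, the ribosomal RNA methyltransferases among the 43 genes. Cells in rapid growth express this set of genes at high levels, and the transcription factor MYC is a known activator of many of them.

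The libraries held between 12664158 and 18771349 estimated counts. Levels are given as CPM, a gene's count scaled by the total of its library, and fold changes are log2 values from edgeR's quasi-likelihood model after TMM scaling, with 95% intervals where printed. TMM and CPM did not give the same baseline. With library totals in place of TMM, the median log2 fold change of all genes was 0.33 between the media in HEK293T cells and 0.37 for R1 against HEK293T in +Met, against 0.03 and 0.02 with TMM. A gene whose CPM was equal in 2 such groups therefore has a fold change below 0. The summed CPM of the 79 cytosolic ribosomal protein genes also differed between these groups. It was 152090 ± 18836 (SD, n = 3) in HEK293T +Met, 112650 ± 19160 in HEK293T −Met+Hcy, 73477 ± 20773 in R1 +Met and 75417 ± 11596 in R1 −Met+Hcy. For R1 against HEK293T in −Met+Hcy this sum was lower in R1 as well, although the median of all genes there was 0.01 with library totals and -0.01 with TMM. Its part in the fold changes was not tested.

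One library stood furthest apart from the others. Replicate 3 of R1 −Met+Hcy had 13936 genes with a count above 0, against 16216 to 17065 in the other 11 libraries. Among the 43 genes, its log2 difference from the mean of replicates 1 and 2 ran from -1.93 for BYSL to 1.66 for TAF1D. This difference followed the GC content of the transcripts, with a Spearman rho of -0.792 over the 43 genes, which all come from the same libraries. Other libraries also differed from the rest of their group with GC content. Over 11043 genes, rho in the other groups ran from -0.338 (replicate 2 of R1 +Met) to 0.537 (replicate 1 of HEK293T +Met). It was -0.744 for replicate 3 of R1 −Met+Hcy. Because the model shares its estimate of spread across groups, this library also weighed on the comparisons that do not include it. The common dispersion was 0.109 with it and 0.0349 without it. The counts of edgeR calls over the 43 genes and over each other list are therefore given with and without it, and the remaining counts include it unless stated. Replicate 2 of R1 +Met also stood apart from its group, by less. The chi-square per gene was 72.1 and 90.1 between it and replicates 1 and 3, and 7.13 between those. NCL was at 829 CPM in replicate 2, beside 1620 and 1880 CPM, and NPM1 was at 2800 CPM, beside 1870 and 1860 CPM.

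**Figure D1:**
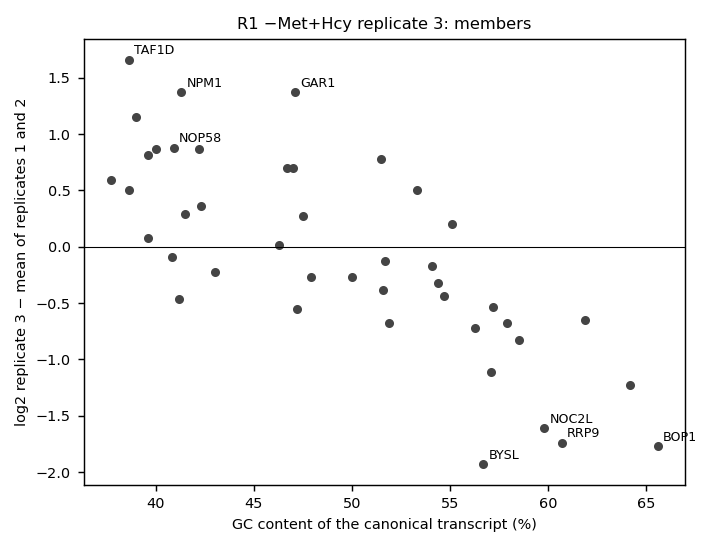
GC content of the canonical transcript (x axis, percent) against the log2 difference of replicate 3 of R1 −Met+Hcy from the mean of replicates 1 and 2 (y axis, CPM plus a pseudocount of 0.5), 1 point for each of the 43 genes. The difference falls with GC content, from 1.66 for TAF1D at 38.6% GC to -1.77 for BOP1 at 65.6%.

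The labelled line was checked against marker genes. Of 6 genes expressed in HEK293T cells by common knowledge, among them the neurofilament gene NEFL, 5 reached a mean of 1 CPM in both HEK293T groups and 6 did in both R1 groups. PAX2 was below 1 CPM in HEK293T, at 0.46 in +Met and 0.796 in −Met+Hcy, beside 5.64 and 4.13 in R1. NEFM was lower in R1 without overlap, at 29.6 and 53.2 CPM in HEK293T and 13.5 and 19.5 CPM in R1. In +Met, INA was also higher in R1 and LIN28B lower, without overlap, while NEFL and IGF2BP1 overlapped. KRT5, KRT6B and S100A8, markers of the breast line MDA-MB-468, were at 0 in the mean of every group. The 9 genes listed for that line summed to 4.63 CPM in HEK293T +Met, 5.44 in HEK293T −Met+Hcy, 16.6 in R1 +Met and 15.9 in R1 −Met+Hcy, and EGFR was the most abundant, at 4.15, 3.83, 15.2 and 13.4 CPM. CDH3 was at 0.393, 1.53, 1.37 and 2.45 CPM in the same order. The 5 fibroblast markers summed to 28.4 CPM in HEK293T +Met, 52.3 in HEK293T −Met+Hcy, 65.0 in R1 +Met and 68.1 in R1 −Met+Hcy, so that they also differed between the media in HEK293T cells. The most abundant in both HEK293T groups was COL3A1, at 14.8, 15.4 and 10.5 CPM in +Met and 37.1, 29.4 and 20.7 CPM in −Met+Hcy, without overlap. LUM was also higher without overlap, beside 38.6% of all tested genes, and COL1A1, COL1A2 and DCN overlapped. In R1 +Met it was COL1A1, at a mean of 31.6 CPM. COL1A2 was at 0 in the means of HEK293T +Met and R1 −Met+Hcy, at 0.113 CPM in HEK293T −Met+Hcy and at 0.0526 CPM in R1 +Met. The part of these marker levels in the results was not tested.

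The 43 genes were abundant. Their summed CPM was 13474 ± 624 (SD, n = 3) in HEK293T +Met, 10586 ± 512 in HEK293T −Met+Hcy, 9649 ± 337 in R1 +Met and 9516 ± 1202 in R1 −Met+Hcy. NPM1, the nucleolar chaperone nucleophosmin, carried 30.1 to 35.2% of the sum in HEK293T +Met and 15.0 to 20.1% in HEK293T −Met+Hcy. Without NPM1 the sums were 9164 ± 759, 8733 ± 688, 7472 ± 772 and 7136 ± 332 in the same order. In CPM without NPM1, the sums of the 2 media in HEK293T cells lay within 1 SD of each other, but after TMM scaling they did not. The sums after TMM were 15896 ± 338 in HEK293T +Met, 10181 ± 86 in HEK293T −Met+Hcy, 8915 ± 243 in R1 +Met and 9179 ± 2192 in R1 −Met+Hcy. After TMM and without NPM1 they were 10805 ± 649, 8391 ± 292, 6894 ± 539 and 6825 ± 836, so that whether the remaining genes were lower in sum between the HEK293T media depended on the scaling. The R1 sums without NPM1 lay below those of HEK293T +Met by more than 1 SD on both scales. Levels per length spanned a wide range in HEK293T +Met. NPM1 stood at 3270 CPM per kilobase of transcript, followed by the H/ACA protein NHP2 at 559, NOP56 at 403 and nucleolin (NCL) at 358. The lowest levels per kilobase were those of the polymerase subunit POLR1A at 7.79 and the polymerase I initiation factor RRN3 at 8.51, followed by UTP15 at 12.5. RRN3 has a second entry with identical counts, and its place in this order would change if its reads were split between the copies. The same holds for FBL, at 200 CPM per kilobase, which could then stand above NCL.

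**Figure D2:**
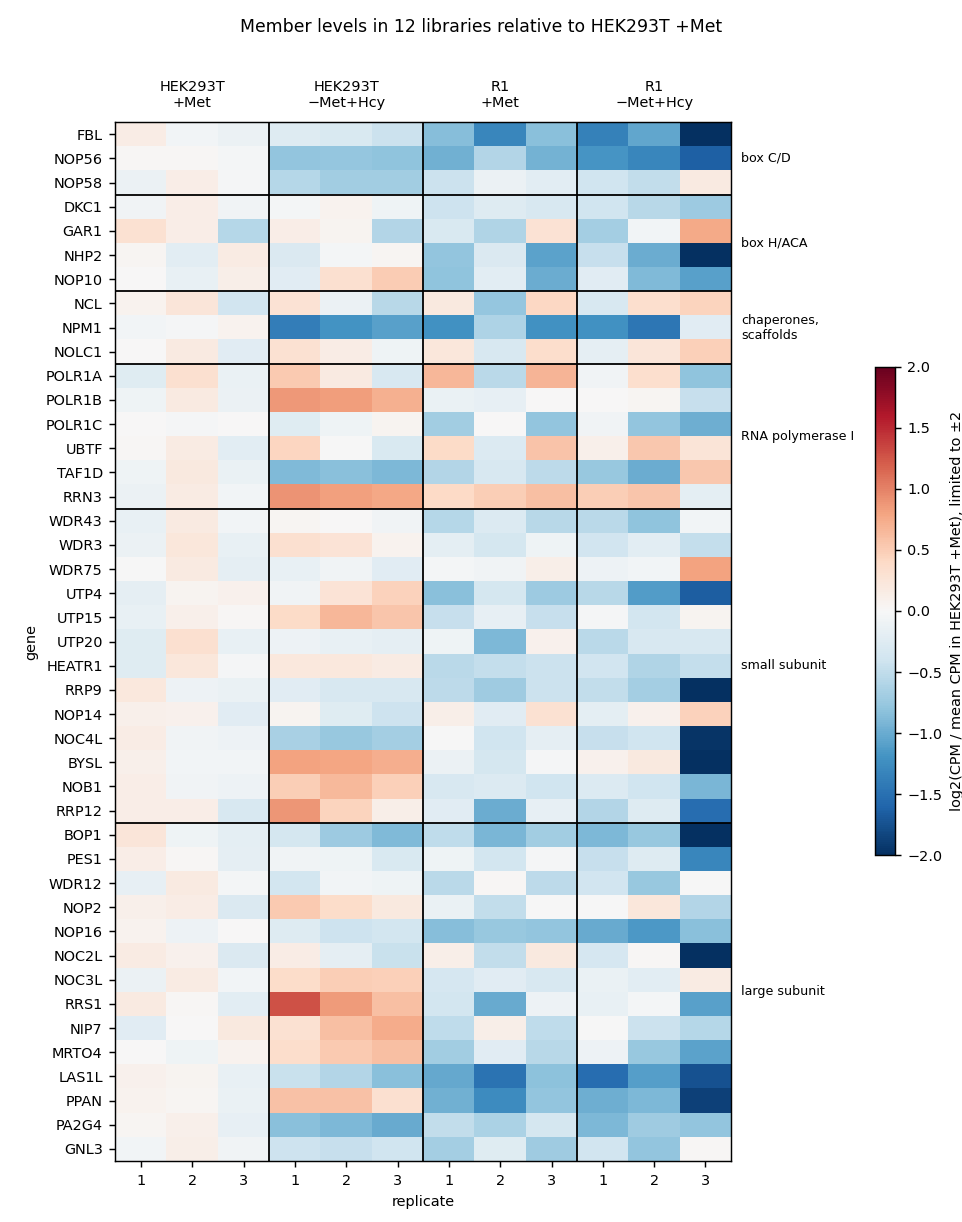
Level of each of the 43 genes (rows, by role) in the 12 libraries (columns, by group and replicate), as log2 of CPM over the mean CPM in HEK293T +Met, with the colour limited to 2 in either direction. NPM1, NOP56, NOP58 and PA2G4 are blue in all libraries of HEK293T −Met+Hcy, FBL and LAS1L are blue in all R1 libraries, and replicate 3 of R1 −Met+Hcy differs from its neighbours.

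In HEK293T cells, −Met+Hcy lowered the RNA of 5 of the 43 genes at an edgeR adjusted p under 0.05 and raised none. For comparison, 2.78% of all tested genes were called lower and 4.25% higher. Among the 5911 genes at least as abundant as the least abundant of the 43 (35.2 CPM), 5.40% were called lower and 3.74% higher. This floor, called like abundance below, sets no upper limit, so levels are not matched. The 5 genes that fell were PA2G4, a growth-regulated protein that binds ribosomes, NOP56 and NOP58, the core proteins of box C/D snoRNPs, NPM1, and LAS1L, a nuclease that cuts the spacer of the large subunit precursor. The median log2 fold change of the 43 genes was -0.38, beside 0.03 for all genes, and 31 of the 43 lay below 0. With library totals in place of TMM the median was -0.08, 23 lay below 0, and LAS1L was no longer called (log2 fold change -0.62, adjusted p = 0.0893). At an unadjusted p under 0.05 by edgeR, 11 genes were lower and 3 were higher, beside 9.49% and 12.9% of all tested genes. DESeq2 called 9 lower and 2 higher, beside 5.52% and 7.52% of all genes. With an absolute log2 fold change over 1 required as well, 3 genes were called lower (PA2G4, NOP56 and NPM1) and none higher, beside 1.59% and 3.04% of all tested genes.

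Box C/D snoRNPs carry the methyltransferase FBL on a scaffold of NOP56 and NOP58. NOP56 (ENSG00000101361, chr20:2652593-2658393 on the plus strand of GRCh38) was at 780, 782 and 748 CPM in HEK293T +Met and at 445, 449 and 443 CPM in HEK293T −Met+Hcy. The groups did not overlap, and the spread within each was small beside the gap. Its log2 fold change was -1.08 (interval -1.45 to -0.71, edgeR adjusted p = 0.00427). NOP58 (ENSG00000055044, chr2:202265736-202303661, plus strand) was at 292, 344 and 311 CPM in +Met and at 211, 194 and 195 CPM in −Met+Hcy, again without overlap. Its log2 fold change was -0.95 (interval -1.46 to -0.45, edgeR adjusted p = 0.0301). FBL itself (ENSG00000105202, chr19:39834458-39846379, minus strand) was at 251, 217 and 209 CPM in +Met and at 190, 182 and 167 CPM in −Met+Hcy. The 2 groups of FBL did not overlap, but its log2 fold change of -0.63 missed the threshold (edgeR adjusted p = 0.0841) and shrank to -0.33 with library totals. FBL has a second entry with identical counts in the table, so reads may have been split between copies.

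None of the 4 proteins of box H/ACA snoRNPs, which convert uridine to pseudouridine, was called, with or without replicate 3 of R1 −Met+Hcy, and their median log2 fold change was -0.34. The shares of all tested genes called were 2.78% lower and 4.25% higher with that library and 12.5% and 15.2% without it, and 4 genes are too few to be read against them. The pseudouridine synthase DKC1 was at 241, 277 and 240 CPM in +Met and at 247, 267 and 238 CPM in −Met+Hcy, so that the groups overlapped almost fully. Its log2 fold change after TMM was -0.31 (interval -0.63 to 0.02, edgeR adjusted p = 0.253). NHP2 was at 447, 376 and 486 CPM against 355, 424 and 450 CPM, which also overlapped.

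NPM1 gave the largest fold change of the 43 genes in this comparison. This abundant nucleolar chaperone (ENSG00000181163, chr5:171387116-171411810, plus strand) was at 4130, 4260 and 4540 CPM in HEK293T +Met and at 1660, 1880 and 2020 CPM in −Met+Hcy. Every −Met+Hcy library was below every +Met library. The log2 fold change was -1.51 (interval -2.27 to -0.74, edgeR adjusted p = 0.0249). NCL, another abundant nucleolar protein, was not called. Its level was 1480, 1660 and 1080 CPM in +Met and 1730, 1300 and 956 CPM in −Met+Hcy, with overlapping groups (log2 fold change -0.38, edgeR adjusted p = 0.534). NOLC1, a chaperone of snoRNPs, had a log2 fold change of -0.16.

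None of the 6 genes of RNA polymerase I transcription was called, beside 2.78% of all tested genes lower and 4.25% higher, and their median log2 fold change was -0.18. A set of 6 genes is too small to be read against those shares. When replicate 3 of R1 −Met+Hcy was left out, 1 was called lower and 2 higher, beside 12.5% and 15.2% of all genes. POLR1B, the second largest subunit, was at 125, 150 and 122 CPM in HEK293T +Met and at 242, 235 and 215 CPM in −Met+Hcy. RRN3, which brings the polymerase to the promoter, was at 28.9, 35.4 and 30.3 CPM in +Met and at 58.9, 55.7 and 54.0 CPM in −Met+Hcy. Both genes were higher in every −Met+Hcy library than in any +Met library. Their log2 fold changes of 0.51 and 0.54 did not pass with TMM (edgeR adjusted p = 0.0639 and 0.0839). With library totals, which raise all fold changes in this comparison, the values were 0.80 and 0.83 and both were called (edgeR adjusted p = 0.0127 and 0.0227). TAF1D, a subunit of the promoter selectivity factor, was at 63.5, 77.0 and 61.5 CPM against 36.4, 37.6 and 36.3 CPM, with a log2 fold change of -1.16 that was not called (edgeR adjusted p = 0.0859). The largest subunit POLR1A, the shared subunit POLR1C and the activator UBTF had log2 fold changes of -0.14, -0.38 and -0.23.

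None of the 13 genes of small subunit assembly was called, beside 2.78% and 4.25% of all tested genes, and their median log2 fold change was -0.10. With 13 genes, the lack of calls cannot be read against those shares. When replicate 3 of R1 −Met+Hcy was left out, 4 were called lower and 1 higher, beside 12.5% and 15.2% of all genes. NOC4L, which works with NOP14 in the early precursor, was at 50.8, 43.4 and 42.8 CPM in HEK293T +Met and at 29.2, 27.0 and 28.5 CPM in −Met+Hcy. The groups did not overlap (log2 fold change -0.99, edgeR adjusted p = 0.0554), and NOC4L too has a second entry with identical counts. NOP14 was at 261, 258 and 207 CPM against 250, 205 and 182 CPM, with overlap (log2 fold change -0.49, edgeR adjusted p = 0.252). The other end of the range was held by BYSL, a late assembly factor, at 95, 85.1 and 85.0 CPM against 155, 153 and 147 CPM. Its groups did not overlap, yet its log2 fold change of 0.48 had a wide interval of -0.32 to 1.29 under the shared spread, and it was called without replicate 3 of R1 −Met+Hcy (edgeR adjusted p = 0.0113).

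Of the 14 genes of large subunit assembly, 2 were called lower, beside 2.78% of all tested genes and 5.40% at like abundance. When replicate 3 of R1 −Met+Hcy was left out, 6 were called lower and 1 higher, beside 12.5% and 15.2%. PA2G4 (ENSG00000170515, chr12:56104537-56113910, plus strand) was at 605, 634 and 527 CPM in HEK293T +Met and at 329, 317 and 292 CPM in −Met+Hcy. The gap between the groups was far wider than the spread within them (log2 fold change -1.21, interval -1.56 to -0.85, edgeR adjusted p = 0.00208). LAS1L (ENSG00000001497, chrX:65438549-65534810, minus strand) was at 132, 129 and 112 CPM in +Met and at 90.7, 82.7 and 69.8 CPM in −Met+Hcy (log2 fold change -0.92, interval -1.34 to -0.49, edgeR adjusted p = 0.0170). NOP2, an rRNA methyltransferase that uses S-adenosylmethionine, was at 214, 220 and 162 CPM in +Met and at 286, 256 and 227 CPM in −Met+Hcy. All 3 −Met+Hcy libraries of NOP2 were above the +Met libraries in CPM, whereas its log2 fold change after TMM was 0.07 (interval -0.35 to 0.50). The highest log2 fold change of the 43 genes was 0.64, for RRS1, which brings the small ribosomal RNA of the large subunit into the precursor (edgeR adjusted p = 0.179).

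By CPM, 12 of the 43 genes were lower without overlap between the HEK293T groups and 11 were higher, beside 9.80% and 38.6% of all tested genes. Without replicate 3 of R1 −Met+Hcy, 15 genes were called lower and 4 higher, beside 12.5% and 15.2% of genes. All 5 genes named above were among the 15. The 4 called higher were POLR1B, RRN3, BYSL and RRS1. With any of the 6 HEK293T libraries left out, 2 genes were called, beside 0.429 to 1.11% of all tested genes called lower. NOP56 and PA2G4 were the 2 called with every library left out in turn.

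**Figure D3:**
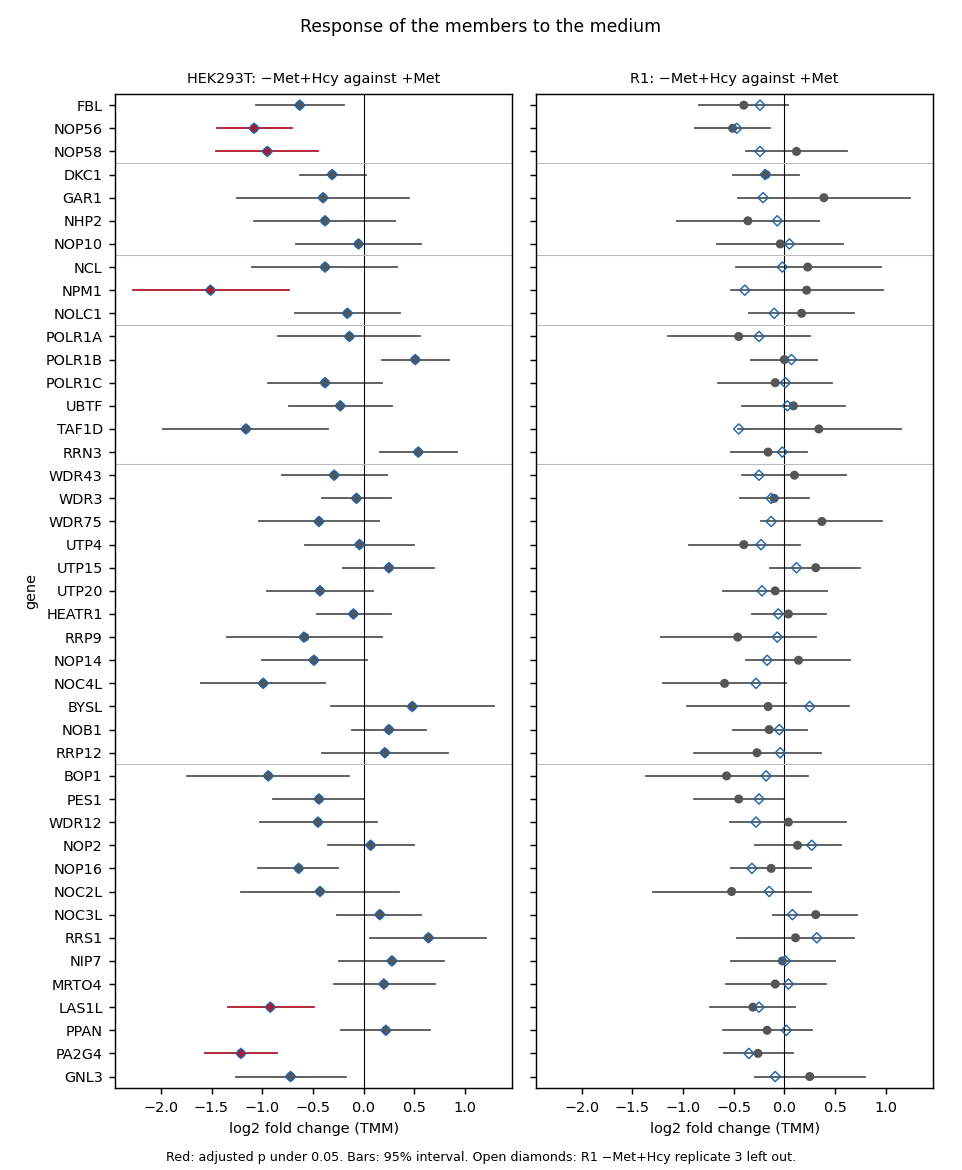
Log2 fold change of each of the 43 genes for −Met+Hcy against +Met in HEK293T (left) and R1 (right), with 95% intervals and red for an edgeR adjusted p under 0.05; open diamonds are the values without replicate 3 of R1 −Met+Hcy. In HEK293T cells 5 genes are red and all lie below 0, while no gene is red in R1.

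In R1 cells no gene of the 43 was called between the media by edgeR, and all but 1 of the 17162 genes tested went uncalled as well (0.00% lower, 0.00583% higher). DESeq2 also called 0 of the 43, beside 0.0408% of all genes lower and 0.192% higher. At an unadjusted p under 0.05, edgeR gave 2 genes lower, NOP56 and PES1, and 0 higher, beside 2.11% and 5.68% of all tested genes. The median log2 fold change was -0.09 with all libraries and -0.13 without replicate 3, where again none of the 43 was called, beside 0.00% of all genes lower and 0.0176% higher. By CPM, 3 genes were lower without overlap (NOP56, NOC4L and PA2G4) and 1 was higher (NOC3L), beside 4.87% and 5.22% of all tested genes. Those shares are near what the whole table gave.

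For the genes that fell in HEK293T cells, the R1 values were as follows. NOP56 was at 396, 513 and 399 CPM in R1 +Met and at 340, 313 and 248 CPM in R1 −Met+Hcy, lower in every −Met+Hcy library (log2 fold change -0.51, interval -0.88 to -0.14, edgeR adjusted p = 0.622). PA2G4 was at 418, 380 and 460 CPM against 316, 361 and 340 CPM, also without overlap but with a smaller gap (log2 fold change -0.26, interval -0.60 to 0.09). NPM1 was at 1870, 2800 and 1860 CPM in R1 +Met and at 1870, 1580 and 3690 CPM in R1 −Met+Hcy. The highest of these NPM1 values belonged to replicate 3 of −Met+Hcy, the library that stood furthest apart. The log2 fold change was 0.22 with it and -0.39 without it. NOP58 was at 235, 290 and 273 CPM against 240, 225 and 356 CPM, where replicate 3 was again the highest. LAS1L was at 60.7, 44.5 and 69.9 CPM against 43, 57.9 and 37.0 CPM, with overlap. FBL was at 125, 91.4 and 126 CPM against 88.1, 110 and 56.9 CPM, and NOP2 was at 181, 142 and 198 CPM against 198, 232 and 132 CPM.

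Genes of the other roles, none of them called in R1, had these R1 values in +Met and −Met+Hcy. NCL was at 1620, 829 and 1880 CPM against 1130, 1780 and 1920 CPM. DKC1 was at 190, 211 and 202 CPM against 192, 172 and 153 CPM, and NHP2 was at 252, 358 and 208 CPM against 317, 220 and 102 CPM. The media overlapped in all 3 genes. NOC4L was at 45.5, 34.8 and 40.3 CPM against 33.2, 34.7 and 11.8 CPM, where replicate 3 was the lowest of the −Met+Hcy libraries. NOP14 was at 262, 206 and 298 CPM against 211, 256 and 333 CPM. Among the polymerase I genes, POLR1B was at 121, 118 and 133 CPM against 133, 135 and 95.7 CPM. RRN3 was at 41.7, 44.1 and 47.6 CPM against 44.5, 46.1 and 27.4 CPM. POLR1A was at 154, 66.6 and 156 CPM against 92.1, 123 and 55.4 CPM, and it was at 139, 110 and 77.9 CPM in HEK293T −Met+Hcy. In each of these polymerase I genes the R1 media overlapped and replicate 3 of −Met+Hcy was the lowest R1 library.

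Whether the 2 lines responded differently was tested as the difference of their responses. By edgeR none of the 43 genes passed, beside 0.0583% of genes called lower in R1 and 0.00% called higher. At an unadjusted p under 0.05, 7 of the 43 were higher in the R1 response and 2 were lower, beside 4.62% and 5.05% of all tested genes. The smallest adjusted p was that of PA2G4, with a difference of 0.95 on the log2 scale (interval 0.46 to 1.45, edgeR adjusted p = 0.224). The differences were 1.73 for NPM1 (interval 0.66 to 2.79, edgeR adjusted p = 0.312) and 1.07 for NOP58 (interval 0.36 to 1.78, edgeR adjusted p = 0.337). DESeq2 called 2 genes, NPM1 (1.75, DESeq2 adjusted p = 0.0450) and PA2G4 (0.96, DESeq2 adjusted p = 0.000395), both higher, beside 0.524% of all genes. Without replicate 3 of R1 −Met+Hcy, edgeR called PA2G4 alone of the 43, at a difference of 0.86 (edgeR adjusted p = 0.0425), and NPM1 stood at 1.12 (edgeR adjusted p = 0.0728). That call came beside 1.28% of all genes lower and 0.398% higher. Whether PA2G4 was called depended on 1 library and on the tool. The median difference of the 43 genes was 0.15 with TMM and -0.16 with library totals, beside -0.06 and -0.38 for all genes.

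Many of the 43 genes were lower in R1 than in HEK293T in +Met, where both lines had methionine. Of the 43 genes, 15 were called lower in R1 and none higher by edgeR, beside 4.48% of all tested genes lower and 5.69% higher (7.49% and 3.13% among the 5911 genes of at least like abundance). At an unadjusted p under 0.05 by edgeR, 32 of the 43 were lower and 0 higher, beside 12.5% and 13.6% of all tested genes. DESeq2 called 24 lower and 0 higher, beside 7.95% and 8.85%. The genes that were lower came from most roles: 2 of 3 of box C/D, DKC1, NPM1, 5 of the 13 small subunit factors and 6 of the 14 large subunit factors, and none of the 6 genes of polymerase I transcription. When replicate 3 of R1 −Met+Hcy was left out, they were 3 of 3 of box C/D, 3 of 4 of box H/ACA, NPM1, 12 of 13 small subunit factors, 13 of 14 large subunit factors and 3 of the 6 polymerase I genes, beside 15.7% of all genes. The median log2 fold change was -0.68, and 41 of the 43 lay below 0. With library totals the median was -0.33, 36 lay below 0 and 7 were called lower, beside 2.08% of all genes. With an absolute log2 fold change over 1 required, 6 were lower and 0 higher, beside 2.95% and 4.71% of all genes. Without replicate 3 of R1 −Met+Hcy 35 genes were called lower, beside 15.7% of all genes, and all 15 were among them. With 1 library left out at a time, 6 (without replicate 1 of R1 +Met, beside 1.15%) to 35 genes were called lower. The count was 8, 8 and 7 without replicates 1, 2 and 3 of HEK293T +Met, 9 without replicate 2 of HEK293T −Met+Hcy and 7 without replicate 3 of R1 +Met, beside 1.39 to 2.98% of all genes.

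The smallest adjusted p was that of LAS1L, at 132, 129 and 112 CPM in HEK293T +Met and 60.7, 44.5 and 69.9 CPM in R1 +Met. Its log2 fold change was -1.45 (interval -1.88 to -1.02, edgeR adjusted p = 0.00119). NOP56 was lower by a similar margin, with 780, 782 and 748 CPM against 396, 513 and 399 CPM (log2 fold change -1.17, edgeR adjusted p = 0.00168). FBL was at 251, 217 and 209 CPM in HEK293T and at 125, 91.4 and 126 CPM in R1 (log2 fold change -1.34, interval -1.78 to -0.90, edgeR adjusted p = 0.00202). In all 3 genes the R1 libraries lay below every HEK293T library. PPAN, an assembly factor of the large subunit, was at 115, 113 and 100 CPM against 56.6, 45.8 and 63.7 CPM (log2 fold change -1.34, edgeR adjusted p = 0.00215). NOP16, another factor of the large subunit, was at 70.1, 62.3 and 67.1 CPM against 37.0, 39.3 and 38.5 CPM (log2 fold change -1.15, edgeR adjusted p = 0.00255). These 5 genes and PA2G4 were called whichever library was left out.

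Only 2 genes had a log2 fold change above 0 in this comparison, and neither was called. RRN3 was at 28.9, 35.4 and 30.3 CPM in HEK293T +Met and at 41.7, 44.1 and 47.6 CPM in R1 +Met (log2 fold change 0.15, edgeR adjusted p = 0.645). POLR1A was at 82.2, 121 and 88.8 CPM against 154, 66.6 and 156 CPM, with overlap (log2 fold change 0.01). By CPM, 22 genes were lower without overlap and 1, RRN3, was higher, beside 9.15% and 38.1% of all tested genes.

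In −Met+Hcy, 16 genes were called lower in R1 than in HEK293T and none higher by edgeR, beside 6.76% and 7.20% of all tested genes (7.88% and 6.60% at like abundance). At an unadjusted p under 0.05 by edgeR, 24 of the 43 were lower and 0 higher, beside 14.5% and 15.0% of all tested genes. DESeq2 called 20 lower and 0 higher, beside 10.1% and 10.6%. The median log2 fold change was -0.55, and 7 genes lower and 0 higher also had an absolute log2 fold change over 1, beside 4.66% and 5.29% of all genes. Without replicate 3 of R1 −Met+Hcy it was -0.50, and 21 genes were called lower, beside 14.6% of all genes, with all 16 among them. The count was 10, 8 and 9 without replicates 1, 2 and 3 of HEK293T −Met+Hcy, beside 4.36%, 3.16% and 3.52% of all genes, and with these 2 groups compared alone it was 3, beside 1.34%. PPAN had the smallest adjusted p. It was at 166, 166 and 138 CPM in HEK293T −Met+Hcy and at 55.9, 59.2 and 30.3 CPM in R1 −Met+Hcy (log2 fold change -1.73, interval -2.19 to -1.28, edgeR adjusted p = 0.000411). POLR1B, not called in +Met, was lower here, with 242, 235 and 215 CPM against 133, 135 and 95.7 CPM (log2 fold change -0.96, edgeR adjusted p = 0.00173). The nuclease NOB1, which finishes the small subunit RNA, was at 195, 217 and 193 CPM against 114, 105 and 72.9 CPM (log2 fold change -1.08, edgeR adjusted p = 0.00162). In each of these genes the 2 lines did not overlap. By CPM, 23 genes were lower without overlap and 1, NOP58, was higher, beside 17.8% and 13.9% of all tested genes.

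Of the 5 genes that fell with −Met+Hcy in HEK293T, NOP56 and LAS1L were called lower in R1 than in HEK293T in this medium, whereas PA2G4, NPM1 and NOP58 were not called. PA2G4 had a log2 fold change of 0.11 between the lines in −Met+Hcy (interval -0.24 to 0.46), beside -0.84 in +Met (edgeR adjusted p = 0.00706). NPM1 had 0.40 in −Met+Hcy (interval -0.35 to 1.14), beside -1.33 in +Met (edgeR adjusted p = 0.0317). The tests of those changes between media are the differences of the responses given above. The line comparisons share their libraries with the comparisons of the media. The 11 genes called lower in R1 in both media were FBL, NOP56, DKC1, WDR3, UTP4, HEATR1, NOB1, NOP16, MRTO4, LAS1L and PPAN, beside 2.25% of all tested genes called lower in both. Leaving out replicate 3 of R1 −Met+Hcy gave 20 such genes, beside 8.07%. With another library left out the count was 3 to 13, beside 0.861 to 2.53%. It was 3 without replicate 1 of R1 +Met and without replicate 2 of HEK293T −Met+Hcy. It was 4 to 6 without each other library of those groups or of HEK293T +Met, except replicate 2 of R1 +Met, which gave 13, and it was 7 without replicate 2 of R1 −Met+Hcy.

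**Figure D4:**
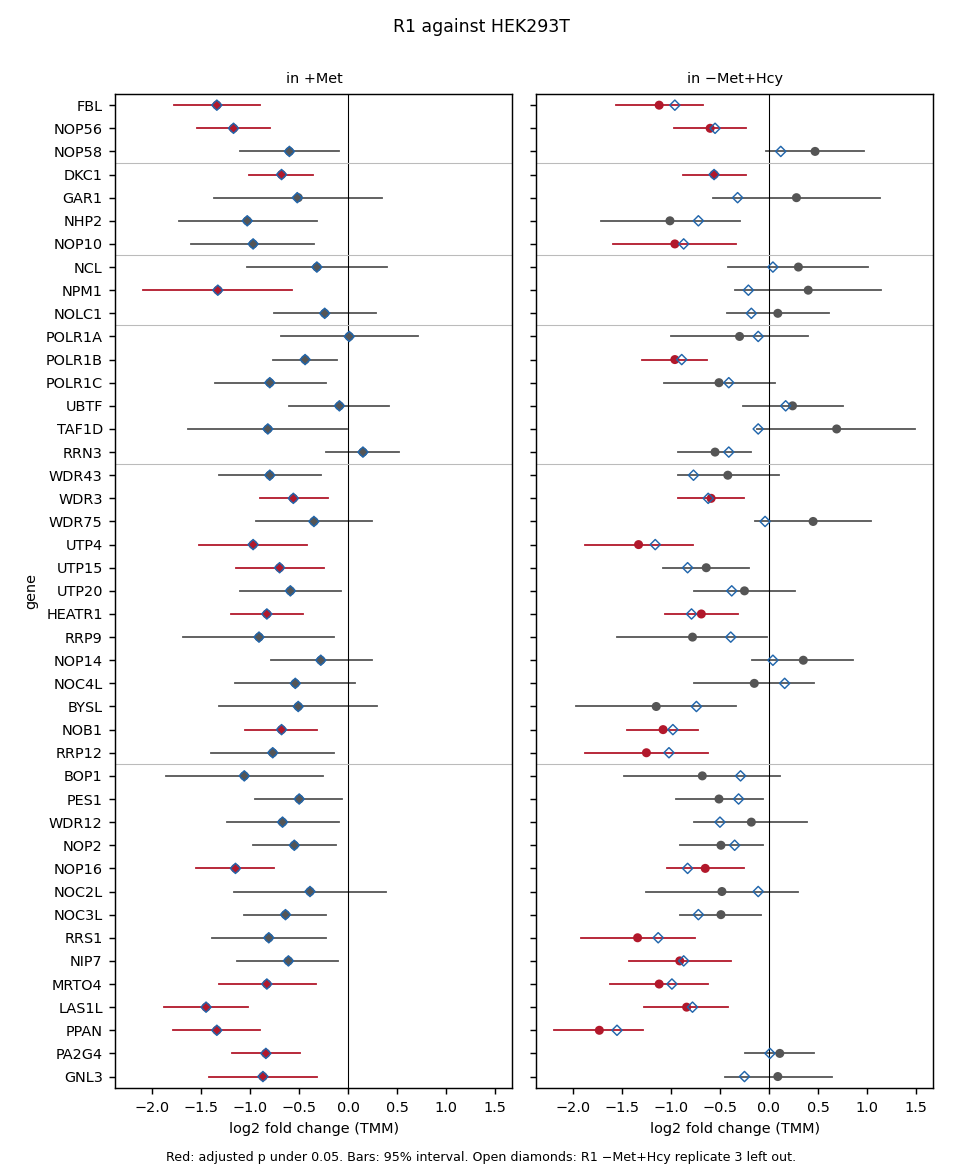
Log2 fold change of each of the 43 genes for R1 against HEK293T in +Met (left) and −Met+Hcy (right), with 95% intervals and red for an edgeR adjusted p under 0.05; open diamonds leave out replicate 3 of R1 −Met+Hcy. All red genes, 15 on the left and 16 on the right, lie below 0.

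MYC, a transcription factor that binds the E-box CACGTG with its partner MAX, was lower in R1 than in HEK293T in both media. It was at 269, 247 and 244 CPM in HEK293T +Met and rose to 581, 591 and 578 CPM in HEK293T −Met+Hcy (log2 fold change 0.91, edgeR adjusted p = 0.00616). In R1 it was at 56.7, 55.5 and 52.1 CPM in +Met and at 60.0, 69.3 and 60.8 CPM in −Met+Hcy (log2 fold change 0.26, edgeR adjusted p = 0.642). R1 was below HEK293T by a log2 fold change of -2.56 in +Met (edgeR adjusted p = 6.84e-06) and -3.22 in −Met+Hcy (edgeR adjusted p = 1.46e-06). The difference between the 2 responses of MYC was -0.65 (edgeR adjusted p = 0.371).

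**Figure D5:**
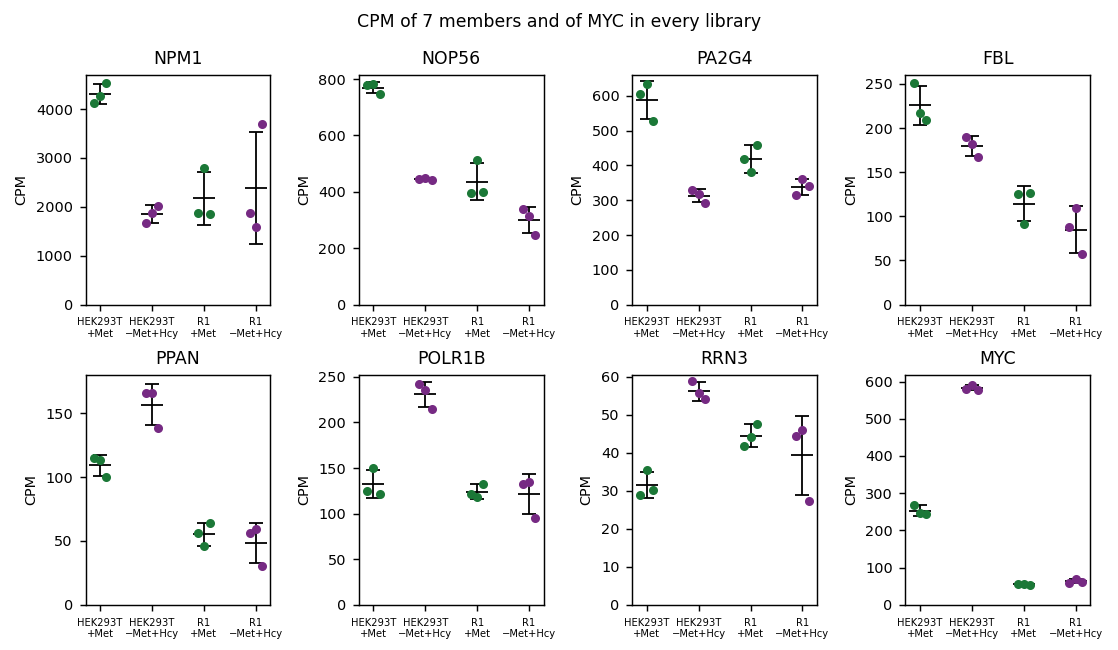
CPM (y axis, from 0) of NPM1, NOP56, PA2G4, FBL, PPAN, POLR1B, RRN3 and MYC in the 12 libraries, by line and medium, with points for libraries, green for +Met and purple for −Met+Hcy, and bars for the mean and SD of 3. NPM1, NOP56 and PA2G4 are lower in HEK293T −Met+Hcy than in +Met, PPAN, POLR1B, RRN3 and MYC are higher in CPM, and MYC is lowest in R1.

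Promoter sequence was available for 38 of the 43 genes, as 45 RefSeq windows on GRCh38.p14 from 250 bases before to 50 after the start of the gene. The E-box CACGTG, which reads the same on both strands, was in 14 of the 45 windows (31.1%), beside 8.88% of the windows of tested genes and 7.26% of all 35116 windows. The motif CCGGAAG, searched on both strands and bound by ETS factors, was in 40.0%, beside 14.8% and 10.3%. The palindrome of the factor BANP was in 2.22%, beside 0.682% and 0.424%. No motif of these 3 contains another, and a match describes the letters only. The windows below show the E-box, in capitals, with 12 bases on either side, for 5 genes that hold it and were called lower in R1 in at least 1 medium, each on its gene's strand:
FBL: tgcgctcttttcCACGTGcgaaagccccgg
UTP4: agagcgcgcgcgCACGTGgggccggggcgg
MRTO4: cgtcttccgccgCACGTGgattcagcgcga
GNL3: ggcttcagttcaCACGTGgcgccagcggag
NOP10: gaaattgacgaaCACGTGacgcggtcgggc

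These windows lie at chr19:39846356-39846385 (minus strand) for FBL, chr16:69132621-69132650 (plus) for the small subunit factor UTP4, chr1:19251807-19251836 (plus) for MRTO4, a placeholder for a ribosomal stalk protein in the large subunit precursor, chr3:52686026-52686055 (plus) for the nucleolar GTPase GNL3, and chr15:34343130-34343159 (minus) for the H/ACA protein NOP10. NOP10 holds another E-box upstream, at chr15:34343289-34343318. In R1 against HEK293T in +Met the median was -0.72 for the 14 genes with it, of which 4 were called lower, and -0.68 for the 24 without it, of which 11 were, beside 4.48% of all tested genes. The counts were 12 of 14 and 19 of 24 without replicate 3 of R1 −Met+Hcy, beside 15.7%. In HEK293T cells between the media the medians were -0.34 and -0.38, and 0 and 4 genes were called lower, beside 2.78%, and 5 and 8 without that library, beside 12.5%. The difference between genes with and without the E-box was not tested.

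Of the 43 genes, 9 have snoRNA genes annotated inside their bounds, 34 in all. Many snoRNAs are cut from the introns of such host genes. TAF1D holds 8 of them, GNL3 holds 6, NOP56 holds 5 and NOP58 holds 4. In HEK293T cells between the media, the median log2 fold change was -0.38 for the 9 hosts, of which 2 were called lower, and -0.20 for the other 34 genes, of which 3 were, beside 2.78% of all tested genes. The counts were 4 and 11 without replicate 3 of R1 −Met+Hcy, beside 12.5%. The difference between the sets was not tested. The deposited table was used for the host genes only, and no snoRNA level was analysed here.

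Another 132 genes of the pathway, listed by role, were measured beside the 43. In HEK293T cells between the media, 6 of them (4.55%) were called lower and none higher by edgeR, beside 2.78% and 4.25% of all tested genes and 5.40% lower at like abundance. The share lower is near that background, whose floor of 35.2 CPM came from the 43 genes. It was not applied to the 132 genes or to the ribosomal protein genes below. Without replicate 3 of R1 −Met+Hcy, 30 (22.7%) were called lower and 8 (6.06%) higher, beside 12.5% and 15.2%. Their median log2 fold change was -0.18, beside 0.03 for all genes. By role, the genes called lower were 2 of 9 other snoRNP genes, 0 of 9 polymerase I genes, 1 of 41 small subunit factors (2.44%), 2 of 51 large subunit factors (3.92%) and 1 of 22 genes for trimming of rRNA (4.55%). Counts of 0 to 2 genes are too small to be read against the background. They were 4, 0, 11, 8 and 7 in the same order without that library, beside 12.5% of all genes. The 3 with the smallest adjusted p were PIH1D1, a subunit of the R2TP complex that assembles snoRNPs (log2 fold change -1.11, edgeR adjusted p = 0.00681), the large subunit factor EBNA1BP2 (-1.24, edgeR adjusted p = 0.00932) and the small subunit factor UTP18 (-0.70, edgeR adjusted p = 0.0131). EBNA1BP2 was at 186, 186 and 191 CPM in +Met and at 91.9, 103 and 97.2 CPM in −Met+Hcy. Above 0, the smallest adjusted p values were those of SHQ1, which escorts DKC1 before H/ACA assembly (0.66, edgeR adjusted p = 0.0502), UTP25 (0.55, edgeR adjusted p = 0.0618) and RIOK2 (0.78, edgeR adjusted p = 0.0676), none of which passed. SHQ1 was at 62.8, 66.9 and 73.6 CPM against 129, 131 and 134 CPM.

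In R1 between the media none of these 132 genes was called by edgeR, beside 0.00% of all genes lower and 0.00583% higher, and at an unadjusted p under 0.05, 3 were lower and 6 higher, beside 2.11% and 5.68% of all tested genes. None was called without replicate 3 of R1 −Met+Hcy either, beside 0.00% and 0.0176%. In R1 against HEK293T in +Met, 26 of them (19.7%) were called lower and none higher by edgeR, beside 4.48% and 5.69% of all tested genes and 7.49% and 3.13% at like abundance (median log2 fold change -0.57), led by the polymerase I subunit POLR1G (-1.34, edgeR adjusted p = 0.00255). With that library left out, 85 (64.4%) were lower and 0 higher, beside 15.7% and 17.0%. In −Met+Hcy 22 (16.7%) were lower, beside 6.76% of all tested genes and 7.88% at like abundance, and 1 was higher, beside 7.20%, the exosome nuclease EXOSC10 (0.63, edgeR adjusted p = 0.0443). Without that library 56 (42.4%) were lower and 1 higher, beside 14.6% and 15.7%. The cytosolic ribosomal protein genes, the products that these factors assemble, were called lower by edgeR in R1 in +Met in 62 of 79 cases (78.5%, median log2 fold change -1.49), beside 4.48% of all tested genes and 7.49% at like abundance. In HEK293T cells with −Met+Hcy 17 of 79 (21.5%, median -0.72) were called lower, beside 2.78% and 5.40%. The counts without replicate 3 of R1 −Met+Hcy were 79 of 79, beside 15.7% of all genes, and 39 of 79 (49.4%), beside 12.5%.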

How the data were processed

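The authors sequenced total RNA of 12 libraries, 3 in each of 4 groups, and quantified reads with kallisto 0.48.0 (named in the submitters' processing notes) on GRCh38. Deposited are estimated counts that the authors had added up per Ensembl gene and made whole. The study's methods name DESeq2 for its own tests.

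Counts were tested as deposited in R 4.3.3 with edgeR 4.0.16. Genes with a summed count of at least 10 entered 1 quasi-likelihood model of the 4 groups, with TMM scaling, 8 residual degrees of freedom and Benjamini-Hochberg adjustment over all 17162 genes, and a gene was called at an adjusted p under 0.05. DESeq2 1.42.0 and other settings were alternatives. The 43 genes, the lists and the tests were chosen with earlier results of these data known. Values in every library are given for FBL, NOP2, NCL, NPM1, PA2G4, for the 2 genes of each role with the smallest adjusted p in HEK293T between media, for the 3 smallest in each direction in R1 against HEK293T in +Met, and for the 3 smallest in either direction in the difference of the responses. PPAN, NOP16, NOB1, TAF1D and BYSL were added after their values were seen, with values in the groups compared. Gene coordinates, GC content and length are GENCODE's on GRCh38. The test was checked on counts simulated with a single dispersion, below that of the data, and no outlying library. Of 200 genes changed by a log2 fold of 1.5, 200 were recovered, and 9 unchanged genes were called. The setting differs from these data, so the check does not show how the test behaves on them. FBL, RRN3, NOC4L and BOP1 each have a second entry with identical counts, and UTP4 one of 5538 summed counts. The lowest summed count of the 43 genes was 6592, and 3 libraries a group limit the precision.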

Additional observations from a re-analysis of the deposited data

How the results depend on the processing

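No call of the main edgeR fit, with TMM and all 12 libraries, changed direction for the 43 genes in any alternative run. R1 between the media gave 0 calls in every run. Percentages in brackets are the shares of all tested genes called in the same direction under the same setting. In HEK293T between media, 5 genes were called lower and 0 higher (2.78%, 4.25%). The counts lower and higher were 9 and 2 with DESeq2 (5.52%, 7.52%), 17 and 4 with the groups compared alone (15.5%, 18.6%), 12 and 1 after removal of a GC and length trend (9.42%, 10.5%), 19 and 8 after that without replicate 3 of R1 −Met+Hcy (18.1%, 20.0%), and 16 and 4 with DESeq2 without it (15.1%, 16.1%). With a log2 fold change over 1 required, 3 were lower (1.59%). Called higher were 2 with library totals (10.5%) and 1 with filterByExpr (5.45%). Leaving out 1 library each gave 2 to 15 lower (0.429 to 12.5%) and 0 to 4 higher (1.27 to 15.2%). For the difference of the responses, 0 to 1 were higher when a library was left out (0.00 to 0.398%), 2 higher with DESeq2 (0.524%), 2 with the trend removed (0.719%), 6 with the trend removed and without replicate 3 (3.73%), and 7 higher and 2 lower with DESeq2 without it (2.51%, 3.50%). The median difference was -0.16 with library totals, beside -0.38 for all genes. For R1 against HEK293T in +Met, 15 genes were called lower (4.48%), and 6 with the fold threshold (2.95%), 24 with DESeq2 (7.95%), 7 with library totals (2.08%), 31 with the groups alone (13.4%), 30 with the trend removed (9.94%), 34 with the trend removed and without replicate 3 (19.0%, and 1 higher, 20.5%), 35 with DESeq2 without it (18.0%), and 6 to 35 when a library was left out (1.15 to 15.7%). WDR75 was at -0.35 and was not called in the main edgeR fit. It was at 0.00 with library totals and 0.02 with the trend removed, with or without replicate 3. Of the values of the 35 genes called lower here by edgeR without replicate 3, the alternative runs gave 3 with the opposite sign. In −Met+Hcy, 16 were called lower (6.76%), and 7 with the fold threshold (4.66%), 3 with the groups alone (1.34%), 27 with the trend removed and without replicate 3 (19.2%), and 8 to 21 when a library was left out (3.16 to 14.6%). With the trend removed, with or without replicate 3, 1 gene was higher (16.8% with it, 19.8% without it). The causes were not tested. DESeq2 and trend removal without replicate 3 and library totals were chosen after seeing the data.

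A fit with the replicate number as a block called 4 genes lower in HEK293T between media (1.25%), 9 in R1 against HEK293T in +Met (2.59%) and 10 in −Met+Hcy (4.80%). Same-numbered libraries correlated above 0.1 in 6 of 18 pairs (-0.718 to 0.595), so the numbers were not taken to pair samples. With any 1 of the 6 HEK293T libraries left out, NOP58, NPM1 and LAS1L lost their call between the media, and 2 genes were called (0.429 to 1.11%).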

Other observations

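Other genes of the MYC network were measured in the same libraries. MYCN was at 0.313, 0.0685 and 0.00 CPM in HEK293T +Met and at 1.51, 1.96 and 1.58 CPM in R1 +Met, where MYC was lower (log2 fold change of MYCN 3.30, edgeR adjusted p = 0.0222). These levels are close to the limit of detection. MXD4, an antagonist of MYC, was at 70.7, 56.4 and 72.5 CPM in HEK293T +Met and at 103, 103 and 96.6 CPM in R1 +Met, without overlap (log2 fold change 0.25, edgeR adjusted p = 0.603). MAX, the partner of MYC, was at 37.4, 35.2 and 36.6 CPM against 43.2, 36.1 and 40.6 CPM, with overlap (log2 fold change -0.22, edgeR adjusted p = 0.724).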
